A study of Mus musculus with 8 samples.

Results

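The genes described here are 35 genes of mouse embryonic stem cells, chosen by name: the transporters and enzymes of glycolysis, targets of the hypoxia-inducible factor Hif1a, and 3 adenylate kinases. Each gene was read from the probe set that carries its symbol alone and has the highest mean log2 signal over the arrays, and all 5 probe sets of Ak4 were read. Of the 35 listed genes 32 had such a probe set, among 18193 genes on the arrays that had one. All 32 passed the filter on low signal, a log2 of at least 4 on at least 2 arrays, as did 17832 genes in all. These 32 genes have 81 probe sets together. Gpi1 and Eno1 had no probe set named here. Gapdh had 3 probe sets that carry several symbols, which were not used. Ero1l is listed as Ero1a in the annotation.

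Transcripts were measured on 8 single-colour arrays, 2 for each of 4 groups. The groups were cells labelled Rex-1 knockout without leukemia inhibitory factor (LIF), J1 wild-type cells without LIF, cells labelled Rex-1 knockout with LIF, and J1 cells with LIF. Rex-1 is the zinc finger protein encoded by Zfp42, and LIF is the cytokine that keeps mouse embryonic stem cells undifferentiated through STAT3. All 8 arrays carry the strain label J1 and a culture text of growth on gelatin in serum-containing medium, and an extraction text of 12 hours without LIF is attached to every array, those titled as having LIF included. For the knockout-labelled arrays without LIF the culture text speaks of LIF in the medium, while title and treatment say it was absent, and these were followed. The labels do not say how many knockout clones were used. The arrays of a group are called the first and the second, after a letter r in the titles whose meaning the labels do not give. The p-values therefore measure how far such arrays differ, which may be technical.

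Glycolysis splits glucose to pyruvate, and lactate dehydrogenase turns pyruvate into lactate where it does not enter the mitochondria. In the presence of oxygen the prolyl hydroxylases of the Egln family mark Hif1a for destruction. In low oxygen Hif1a pairs with Arnt, binds short DNA elements and raises the transcription of many glycolytic genes. Mouse embryonic stem cells are known to use glycolysis at a high rate. Adenylate kinases balance adenine nucleotides in the cytosol (Ak1) and the mitochondrial matrix (Ak4, and Ak3, which uses GTP).

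The embryonic stem cell markers were high on every array. Their mean log2 signal ran from 12.84 to 13.22 over the 9 measured of 10 listed, with 0 of the 9 under a median log2 of 6. The signal of Zfp42 itself was 16729 to 17997 on the 4 arrays labelled knockout and 18217 to 23255 on the 4 J1 arrays. No label was thus marked by a loss of Zfp42 signal. The labels do not place its probe set relative to the deletion, and one outside it would check nothing, so directions below refer to the arrays labelled knockout. The LIF labels were checked with Socs3, the feedback inhibitor induced by STAT3, which gave 364 to 1549 on the 4 arrays without LIF and 5505 to 7052 on the 4 with it. On the second array of knockout-labelled cells with LIF 91.2% of probe sets reached a log2 of 4, against 85.2% to 87.4% on the other 7. In these bulk samples fewer cells of a type and less RNA per cell cannot be told apart.

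**Figure D1:**
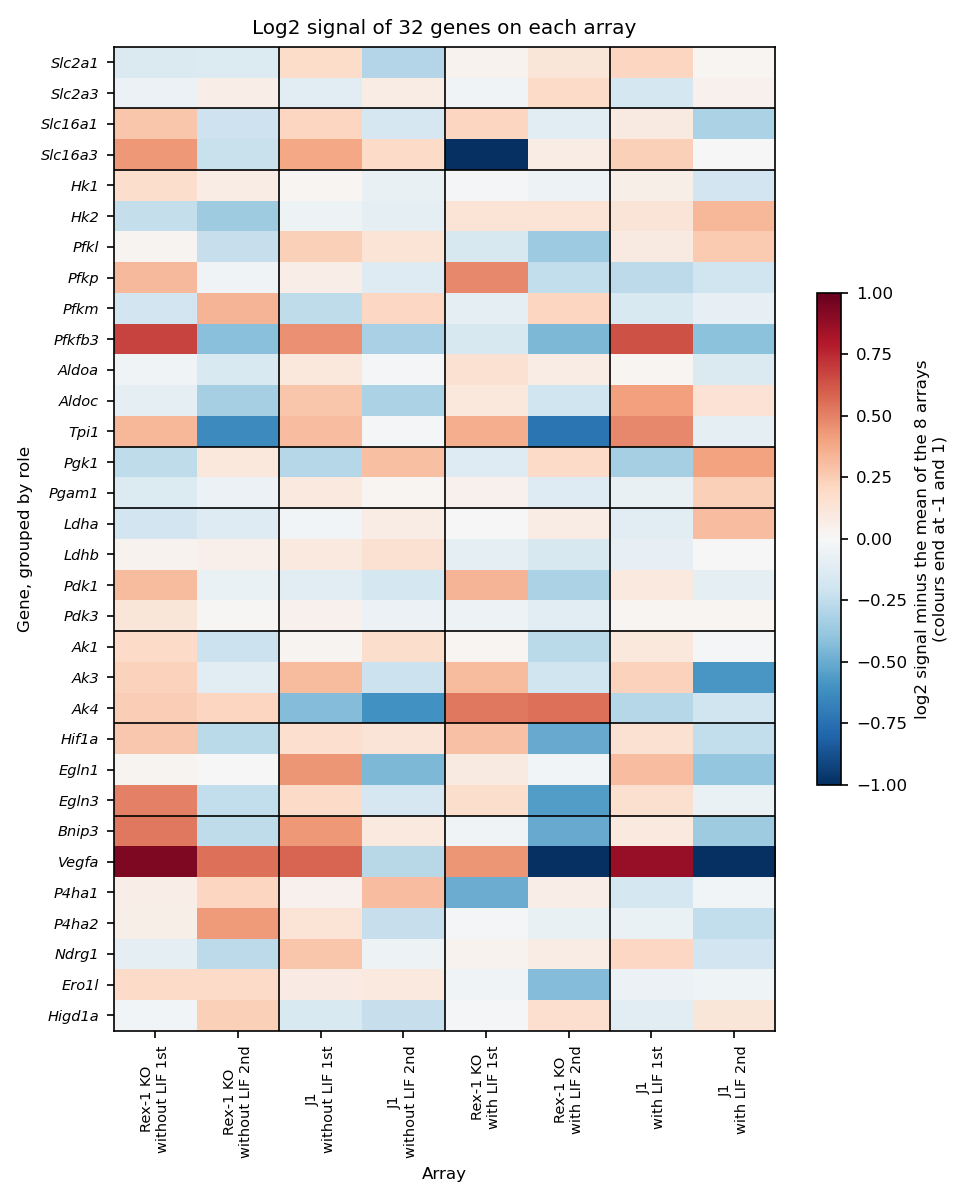
Log2 signal of the 32 measured genes on the 8 arrays (columns), each gene (rows, grouped by role) shown as the difference from its own mean over the arrays. Red is above and blue below that mean, and colours end at -1 and 1. Ak4 is the row that is red on all 4 Rex-1 KO arrays and blue on all 4 J1 arrays, and Vegfa shows the widest contrast between first and second arrays.

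The median line difference of the set was small. With LIF the median log2 difference, knockout-labelled minus J1, was -0.06 over the 32 genes and 0.01 over all 17832 genes. Without LIF it was -0.01 over the 32 and 0.01 over all. Averaged over both media 12 of the 32 genes were higher and 20 lower, with a median of -0.05. Of the 32 genes 1 differed by at least 0.5 on average (3.13%), against 21.1% of all genes, and that gene was Ak4. The share over all genes includes genes of weaker signal than any of the 32. In size, the median averaged line difference was 0.124 over the 32 genes. It was 0.119 over the 9773 genes whose mean log2 reached 7.42, the lowest value of the 32.

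No gene of the list was called. limma called 0 of the 32 genes at an adjusted p under 0.05 in every one of the 7 contrasts (2 line contrasts, 2 LIF contrasts, both averages and the interaction), and likewise 0 of 43439 probe sets (0%) in each. At an unadjusted p under 0.05, 1 of the 32 genes, Ak4, passed for the line difference with LIF, without LIF and on average, where 4.19%, 2.87% and 4.63% of all genes passed. For LIF withdrawal 0 of the 32 passed in J1 cells, 0 in knockout-labelled cells and 0 on average, against 2.75%, 3.36% and 3.22% of all genes. For the interaction 0 passed, against 2.69%.

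Ak4, the matrix adenylate kinase that is induced by hypoxia, had the largest line difference of the 32 genes. Its chosen probe set, 1450387_s_at, read 2182 and 2138 in knockout-labelled cells without LIF, against 1362 and 1208 in J1 cells without LIF. With LIF it read 2653 and 2693 in knockout-labelled cells, against 1510 and 1605 in J1 cells. All 4 knockout-labelled arrays lay above all 4 J1 arrays, and the arrays of a group lay close together.

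The log2 difference of this probe set, knockout-labelled minus J1, was 0.75 (SE 0.21) without LIF, 0.78 (SE 0.21) with LIF and 0.77 (SE 0.15) on average, a 1.70-fold higher signal. limma did not call it (adjusted p = 0.714 on average). It stood at rank 157 of 43439 probe sets by p for the averaged difference. Among the 6516 probe sets whose mean log2 reached 10 it stood second by p and at rank 17 by difference. The difference was 0.75 within the first arrays and 0.78 within the second arrays, and 0.72 to 0.81 when any array was left out. With the replicate block (the letter r) and only those 6516 probe sets, limma called it at adjusted p = 0.0135 (SE 0.07), and over its alternatives the adjusted p ran from 0.0135 to 0.9999.

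Ak4 has 4 other probe sets on the array, and the 2 that also gave a strong signal showed the same difference. Probe set 1421830_at read 1305 to 2196 on the 4 knockout-labelled arrays and 748 to 1169 on the 4 J1 arrays, an averaged log2 difference of 0.85 (SE 0.20). Probe set 1421829_at read 507 to 746 on the knockout-labelled arrays and 312 to 505 on the J1 arrays, a difference of 0.78 (SE 0.21). In all 3 probe sets every knockout-labelled array lay above every J1 array. These probe sets read 1 gene in the same RNA, so they are not independent samples, and the suffix s_at marks a probe set that can match more than 1 transcript.

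The remaining Ak4 probe sets lay near the floor and went other ways. Probe set 1421831_at read 11.9 to 93.5 on the knockout-labelled arrays and 27.9 to 44.8 on the J1 arrays, with a log2 difference of -0.96 (SE 0.49) without LIF and 1.46 (SE 0.49) with it. Probe set 1438395_at read 4.12 to 10.3 on the knockout-labelled arrays and 9.40 to 25.6 on the J1 arrays, a difference of -1.55 (SE 0.36). When all 5 probe sets were averaged, the difference of Ak4 was -0.08 (SE 0.22) without LIF, 0.51 (SE 0.22) with it and 0.22 (SE 0.15) on average, so the direction without LIF turned with this choice.

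**Figure D2:**
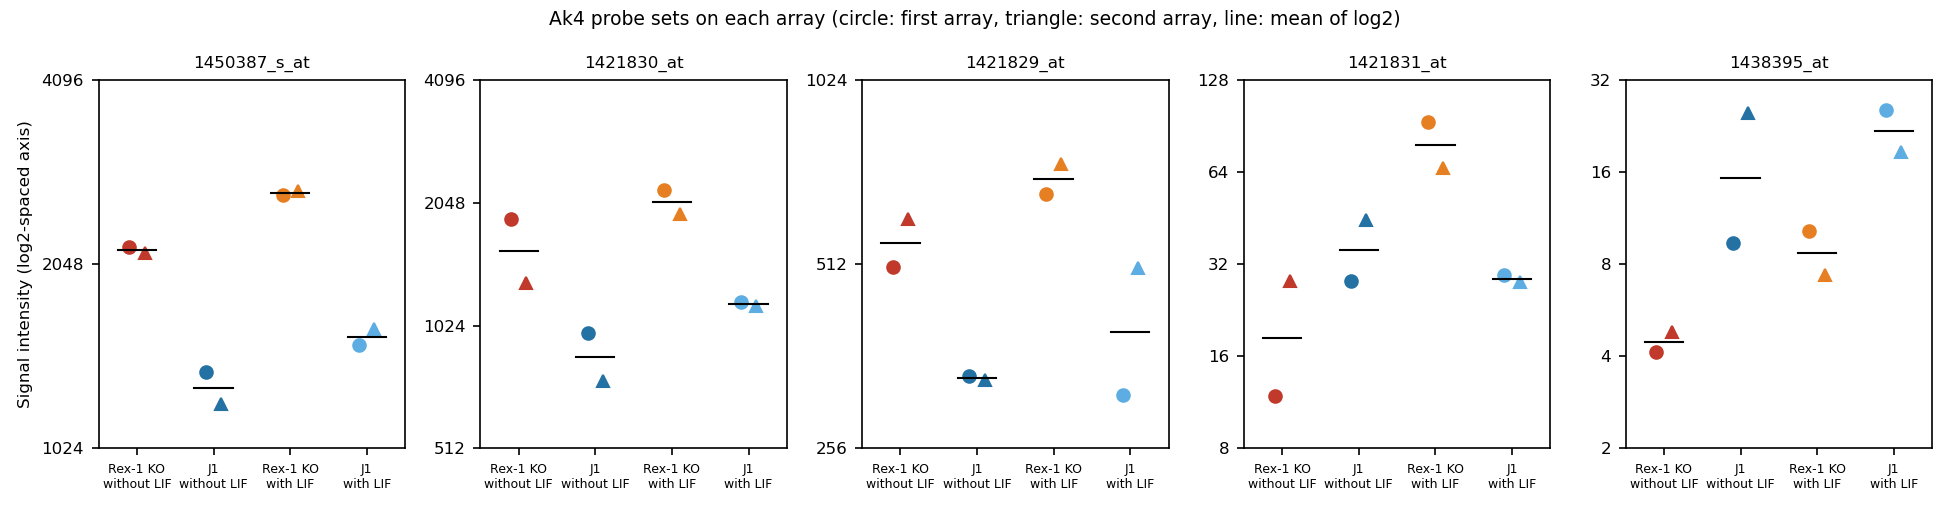
Signal intensity of the 5 Ak4 probe sets on each array (log2-spaced vertical axes with their own range), with Rex-1 KO beside J1 without LIF and then with LIF. Circles are first arrays, triangles second arrays and lines the mean of log2 (n = 2). The first 3 panels have every Rex-1 KO array above every J1 array, and the last 2 do not.

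Markers of other cell types were also compared between the lines, and the ranges of the lines overlapped in each list. The mean log2 of the 10 measured of 10 fibroblast or feeder markers was 7.31 to 7.53 in knockout-labelled and 7.04 to 8.60 in J1 cells without LIF. With LIF it was 6.90 to 7.82 in knockout-labelled and 7.26 to 8.42 in J1 cells, and the averaged difference was -0.44. Of the 10 markers 3 had a median log2 under 6. The mean was highest on the 2 first J1 arrays, at 8.60 without LIF and 8.42 with it, though not for every marker. Of the 10 markers 5 were higher on both first J1 arrays than on both first knockout-labelled arrays, and 1, Dcn, was lower. On the second arrays the list had a mean log2 of 7.31 in knockout-labelled and 7.04 in J1 cells without LIF, and 6.90 in knockout-labelled and 7.26 in J1 cells with LIF. The Ak4 difference was 0.75 within the first arrays and 0.78 within the second, and the part of the fibroblast or feeder list in it was not tested. The 9 extraembryonic endoderm markers had a mean log2 of 6.08 to 6.89 on the knockout-labelled arrays and 5.84 to 6.40 on the J1 arrays. The averaged difference was 0.32 for that list and -0.07 for 7 trophoblast markers, and the part of any of these lists in the line differences was not tested.

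The promoter of Ak4 is printed because the gene stands apart from the others of the list, and that of its paralog Ak3 for comparison. Those of Hk2 and Bnip3 are given for the LIF comparison, where in J1 cells Hk2 had the lowest and Bnip3 the highest difference of the 32 genes. Aldoc was about as low as Hk2 in J1 cells (-0.30 for both). Vegfa had the highest difference in knockout-labelled cells (1.52) and on average (0.89), and its window is not printed. Each sequence is the 250 bases before the most upstream RefSeq start of the gene (GRCm38.p6), written 5′ to 3′ on the gene's strand. Capitals mark the core of the hypoxia response element, ACGTG or GCGTG, searched on both strands.
Ak4, chr4:101419039-101419288 (+): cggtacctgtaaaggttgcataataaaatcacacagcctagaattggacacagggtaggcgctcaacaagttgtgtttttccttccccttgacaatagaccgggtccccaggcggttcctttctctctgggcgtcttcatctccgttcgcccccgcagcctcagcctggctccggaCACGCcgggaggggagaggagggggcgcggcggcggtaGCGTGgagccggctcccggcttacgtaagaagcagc
Ak3, chr19:29047962-29048211 (-): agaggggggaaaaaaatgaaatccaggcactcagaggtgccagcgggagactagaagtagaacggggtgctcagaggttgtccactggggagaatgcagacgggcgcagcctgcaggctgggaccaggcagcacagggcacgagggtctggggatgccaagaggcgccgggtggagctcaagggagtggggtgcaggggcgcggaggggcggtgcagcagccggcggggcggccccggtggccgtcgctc
Hk2, chr6:82774455-82774704 (-): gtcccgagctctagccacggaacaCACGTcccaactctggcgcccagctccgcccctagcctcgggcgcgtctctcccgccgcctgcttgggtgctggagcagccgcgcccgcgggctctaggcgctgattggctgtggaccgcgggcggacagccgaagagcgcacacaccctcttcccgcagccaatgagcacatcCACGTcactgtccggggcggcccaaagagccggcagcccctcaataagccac
Bnip3, chr7:138909507-138909756 (-): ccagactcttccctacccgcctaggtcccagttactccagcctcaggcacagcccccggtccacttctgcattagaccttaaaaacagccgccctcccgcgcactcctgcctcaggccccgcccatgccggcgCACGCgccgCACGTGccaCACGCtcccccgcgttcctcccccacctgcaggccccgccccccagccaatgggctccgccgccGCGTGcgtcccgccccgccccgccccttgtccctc

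The window of Ak4 held 2 elements, 1 on the minus strand 74 to 70 bases and 1 on the plus strand 36 to 32 bases before the start, and that of Ak3 held none. The window of Hk2 held 2, both on the minus strand, and that of Bnip3 held 5, where 2 of the matches overlap in CACGTG, the same core read on either strand. That of Vegfa held 0 and that of Aldoc 1. Of the 33 listed genes with a window, 26 held at least 1 element (78.8%), against 38.6% of 27025 windows of the same length. The letters GCCAT, shared by sites of YY1 and its relative Rex-1, were found on either strand in 6 of the 33 windows (18.2%) and in 32.9% of all windows, and Ak4, Ak3, Hk2 and Bnip3 had none. A match shows only that the letters occur in the window.

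The 4 measured protein-coding genes nearest to Ak4 on chromosome 4, 2 on either side, had smaller differences. Jak1, a kinase that transmits the LIF signal, read 1063 and 1286 in knockout-labelled and 1083 and 985 in J1 cells without LIF, and 1052 and 1104 in knockout-labelled and 824 and 815 in J1 cells with LIF. Its averaged log2 difference of 0.29 (SE 0.16) was not called by limma (adjusted p = 0.985). The differences were 0.16 (SE 0.17) for Dnajc6, -0.10 (SE 0.20) for Cachd1 and -0.06 (SE 0.17) for Leprot.

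The other adenylate kinases had smaller differences. Ak1, the cytosolic enzyme, read 1148 to 1579 on the 4 knockout-labelled arrays and 1367 to 1563 on the J1 arrays, an averaged log2 difference of -0.14 (SE 0.18). Ak3, which uses GTP in the mitochondrial matrix, read 457 to 651 on the knockout-labelled arrays and 350 to 652 on the J1 arrays, a difference of 0.12 (SE 0.28). The arrays of both lines overlapped for both genes.

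**Figure D3:**
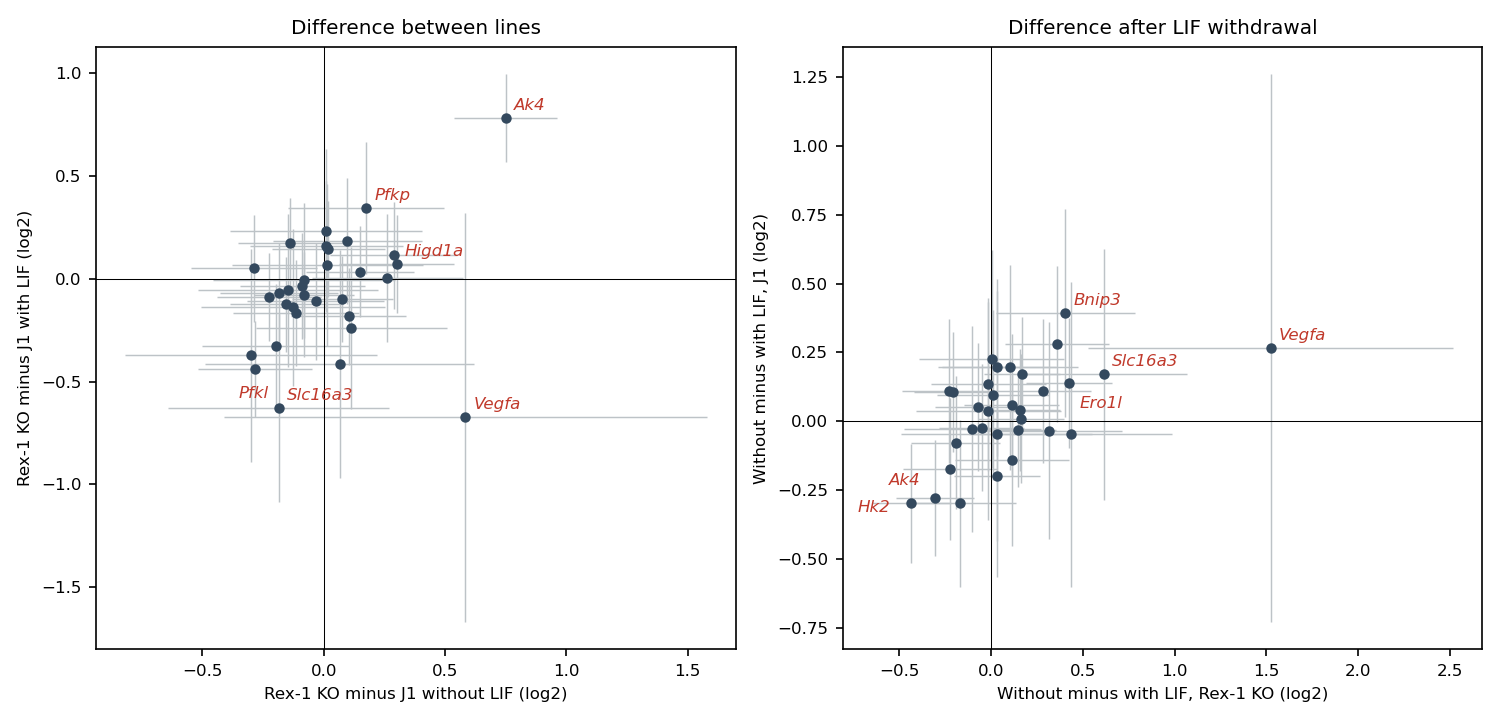
Log2 differences of the 32 genes with their standard errors. On the left, Rex-1 KO minus J1 without LIF (horizontal) and with LIF (vertical), where Ak4 lies alone near 0.75 and 0.78. On the right, without minus with LIF in Rex-1 KO cells (horizontal) and J1 cells (vertical), where Hk2 is lower and Bnip3 and Ero1l higher without LIF in both lines and Vegfa has the widest error bars.

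Glucose enters embryonic stem cells through Slc2a1 and Slc2a3, and neither was called in any contrast. Slc2a1 read 9592 to 11567 on the knockout-labelled arrays and 8646 to 12333 on the J1 arrays, an averaged log2 difference of -0.06 (SE 0.18). Slc2a3 read 12181 to 14467 and 11224 to 13353 on the knockout-labelled and J1 arrays, a difference of 0.08 (SE 0.17). Both ranges overlapped over most of their length.

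Lactate leaves the cell through Slc16a1 and Slc16a3. Slc16a1 read 3717 to 5186 on the knockout-labelled and 3448 to 4980 on the J1 arrays, a difference of 0.09 (SE 0.22). Slc16a3, the exporter induced by hypoxia, read 478 and 304 in knockout-labelled and 465 and 404 in J1 cells without LIF, and 167 and 373 in knockout-labelled and 418 and 355 in J1 cells with LIF. Its first knockout-labelled array with LIF was low and its partner was not, and limma did not call the difference with LIF of -0.63 (SE 0.46). Without that first array the difference was -0.05.

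The upper part of glycolysis runs from the hexokinases to triose phosphate isomerase, and 4 of its 9 measured genes were higher and 5 lower on average, with a median difference of -0.16. Pfkl, the liver-type phosphofructokinase, read 2200 and 1842 in knockout-labelled and 2540 and 2364 in J1 cells without LIF. With LIF it read 1929 and 1675 in knockout-labelled and 2292 and 2587 in J1 cells. It was the 1 gene of the 32 whose 4 knockout-labelled arrays lay below all 4 J1 arrays, as did those of 1.94% of all genes, and Ak4 was the 1 above, as were 2.32% of all genes.

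The averaged difference of Pfkl was -0.36 (SE 0.17), not called by limma (adjusted p = 0.978). Its second probe set gave -0.22 (SE 0.16) and the last 0.21 (SE 0.29), and in both the arrays of the lines overlapped. The platelet-type Pfkp differed by 0.26 (SE 0.23), with 2300 to 3800 on the knockout-labelled arrays and 2282 to 2865 on the J1 arrays. The muscle-type Pfkm differed by 0.14 (SE 0.22). Pfkfb3, which makes the sugar bisphosphate that activates phosphofructokinase, read 125 to 273 on the knockout-labelled arrays and 128 to 265 on the J1 arrays, a difference of -0.18 (SE 0.39).

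Hk1, the constitutive hexokinase, read 880 to 1031 on the knockout-labelled arrays and 798 to 954 on the J1 arrays, a difference of 0.09 (SE 0.16). The aldolases split the sugar into trioses. Aldoa read 9322 and 8606 in knockout-labelled and 10278 and 9444 in J1 cells without LIF, and 10612 and 10056 in knockout-labelled and 9687 and 8641 in J1 cells with LIF. Its line difference was -0.14 (SE 0.22) without LIF and 0.18 (SE 0.22) with LIF, and limma did not call the interaction of -0.31 (SE 0.31, adjusted p = 1.00). The positive value with LIF came from the chosen probe set of 5. The 4 others gave -0.10 to 0.02 with LIF and -0.23 to -0.10 without it. Aldoc differed by -0.26 (SE 0.21) and Tpi1, the triose isomerase, by -0.34 (SE 0.37) on average.

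The lower part, which yields ATP, was measured through Pgk1 and Pgam1, kinase and mutase of the phosphoglycerates. Pgk1 read 10176 to 13804 on the knockout-labelled and 9617 to 16010 on the J1 arrays, a difference of -0.04 (SE 0.26). Pgam1 read 13078 to 14795 on the knockout-labelled and 13654 to 16893 on the J1 arrays, a difference of -0.14 (SE 0.16). The array's own Gapdh control probe sets, which are used to check the labelling, read 18043 to 35446 on the knockout-labelled arrays and 18865 to 41781 on the J1 arrays.

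At the end of the pathway, Ldha, the lactate dehydrogenase subunit induced by hypoxia, read 11230 to 13470 on the knockout-labelled and 11920 to 15848 on the J1 arrays, a difference of -0.13 (SE 0.17). Ldhb, the other subunit, differed by -0.08 (SE 0.15). Pdk1 and Pdk3 block the entry of pyruvate into the mitochondria. Pdk1 read 2808 to 4426 on the knockout-labelled arrays and 3109 to 3747 on the J1 arrays, a difference of 0.13 (SE 0.22), and that of Pdk3 was -0.01 (SE 0.15).

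Withdrawal of LIF was compared to ask which of these genes follow the cytokine. The median log2 difference of the 32 genes, without minus with LIF, was 0.03 in knockout-labelled cells, 0.05 in J1 cells and 0.06 on average, against -0.01, 0.001 and -0.01 over all genes. On average 19 genes were higher and 13 lower without LIF. None was called in any of the 3 contrasts. Of the 32 genes 1, Vegfa, differed by at least 0.5 on average (3.13%), against 17.9% of all genes. In size, the median averaged LIF difference was 0.114 over the 32 genes and 0.102 over the 9773 genes whose mean log2 reached 7.42.

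Hk2, the hexokinase that binds mitochondria, was the 1 gene of the 32 with all 4 arrays without LIF below all 4 with it, where 1.4% of all genes had this order. It read 2729 and 2524 in knockout-labelled cells without LIF, against 3547 and 3548 with LIF. In J1 cells it read 3110 and 3030 without LIF, against 3519 and 4047 with LIF. The log2 differences were -0.43 (SE 0.22) in knockout-labelled cells, -0.30 (SE 0.22) in J1 cells and -0.37 (SE 0.15) on average, which limma did not call (adjusted p = 1.00).

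Ldhb and Ero1l had the opposite order, with all 4 arrays without LIF above all 4 with it, as had 1% of all genes. Ero1l, the oxidase that drives disulfide formation in the endoplasmic reticulum, read 1510 and 1516 in knockout-labelled cells without LIF, against 1295 and 981 with LIF. In J1 cells it read 1401 and 1417 without LIF, against 1274 and 1286 with LIF. The averaged difference was 0.28 (SE 0.17), with 0.02 (SE 0.19) and 0.16 (SE 0.16) from its 2 other probe sets. In both of these the arrays without and with LIF overlapped.

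Ldhb read 1914 and 1931 in knockout-labelled cells without LIF, against 1752 and 1671 with LIF. In J1 cells it read 1995 and 2077 without LIF, against 1758 and 1861 with LIF. Its 4 probe sets gave averaged differences of 0.17 to 0.22. Neither gene was called, and both were chosen for this order after their values were seen.

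**Figure D4:**
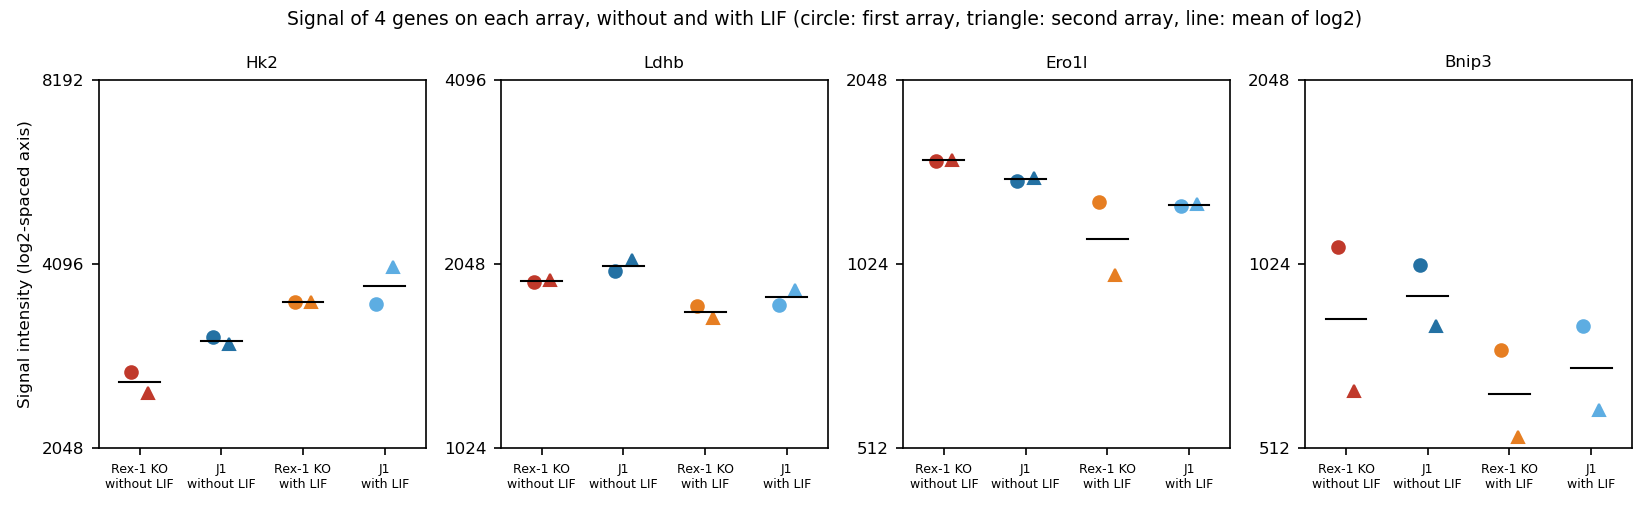
Signal intensity of Hk2, Ldhb, Ero1l and Bnip3 on each array (log2-spaced axes), with both groups without LIF left of both groups with LIF. Circles are first arrays, triangles second arrays and lines the mean of log2 (n = 2). Hk2 lies lower and Ldhb and Ero1l higher on all 4 arrays without LIF, and Bnip3 overlaps.

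Ak4 was also lower without LIF, by the values above, at -0.31 (SE 0.21) in knockout-labelled cells, -0.28 (SE 0.21) in J1 cells and -0.29 (SE 0.15) on average, which limma did not call (adjusted p = 1.00). Its interaction of line and LIF was -0.03 (SE 0.30). In each line both arrays without LIF lay below both with it. The share of all genes with that order is not given here, so no weight is put on it.

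The regulators of the hypoxia response had small values in both comparisons when read from their chosen probe sets. Hif1a, the oxygen-regulated subunit, read 3129 to 5444 on the knockout-labelled and 3734 to 4977 on the J1 arrays, with a line difference of -0.10 (SE 0.26) and a LIF difference of 0.15 (SE 0.26). Egln1, the main prolyl hydroxylase in normal oxygen, differed by 0.04 (SE 0.28) between the lines and 0.01 (SE 0.28) with LIF withdrawal. Egln3, itself a hypoxia target, differed by -0.06 (SE 0.28) and 0.14 (SE 0.28). The weaker probe set of Egln1 gave -0.28 (SE 1.10) between the lines and 1.41 (SE 1.10) with LIF withdrawal. That of Egln3 gave -0.51 (SE 0.56) and 0.41 (SE 0.56).

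The 7 other hypoxia targets had a median averaged difference of -0.04 between the lines, with 2 higher and 5 lower. Without LIF 5 of the 7 were higher on average and 2 lower, with a median of 0.28, where 49.0% of all genes were higher. A further list of 26 hypoxia targets, described below, had 16 higher and 10 lower without LIF, with a median of 0.03. Bnip3, which marks mitochondria for autophagy, read 1093 and 634 in knockout-labelled cells without LIF, against 740 and 534 with LIF. In J1 cells it read 1022 and 810 without LIF, against 812 and 592 with LIF. The differences were 0.41 (SE 0.38) in knockout-labelled cells and 0.39 (SE 0.38) in J1 cells. Its arrays without and with LIF overlapped in both lines, in J1 cells by 810 against 812.

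Vegfa, the angiogenic growth factor, read 423 and 324 in knockout-labelled cells without LIF, against 300 and 55.3 with LIF. In J1 cells it read 333 and 183 without LIF, against 407 and 104 with LIF. The difference was 1.52 (SE 0.99) in knockout-labelled cells and 0.27 (SE 0.99) in J1 cells, and limma called neither these nor the interaction of 1.26 (SE 1.41). The difference in knockout-labelled cells was 2.74 without the first array with LIF and 0.30 without the second. The other Vegfa probe set gave an averaged LIF difference of -0.52 (SE 0.43), against 0.89 (SE 0.70) for the chosen one.

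Higd1a, a mitochondrial protein induced by hypoxia, read 3542 and 4260 in knockout-labelled and 3243 and 3067 in J1 cells without LIF, and 3565 and 4050 in knockout-labelled and 3341 and 3917 in J1 cells with LIF. Its line difference was 0.30 (SE 0.24) without LIF and 0.07 (SE 0.24) with it. Ndrg1, a stress-responsive gene, read 307 and 272 in knockout-labelled and 394 and 315 in J1 cells without LIF, and 333 and 344 in knockout-labelled and 375 and 285 in J1 cells with LIF. Its interaction of -0.34 (SE 0.37) was not called. P4ha1 and P4ha2, collagen prolyl hydroxylases, had LIF differences of 0.32 (SE 0.20) and 0.20 (SE 0.18) on average.

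The first and second arrays of a group were also set against each other. The mean second-minus-first difference was larger in size than both the averaged line and the averaged LIF difference in 21 of the 32 genes (65.6%). This was so in 48.2% of all genes and in 53.7% of the 9773 genes whose mean log2 reached 7.42, the lowest value of the 32. Of the 32 genes 14 were lower on the second array in all 4 groups (43.8%), as were 13.7% of all genes, and 5 were higher (15.6%), as were 16.5% of all genes. Among those 9773 genes these shares were 20.5% and 18.9%.

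Those lower on the second array were Vegfa (-1.41), Pfkfb3 (-0.80), Tpi1 (-0.74), Ak3 (-0.55), Egln3 (-0.52), Bnip3 (-0.51), Hif1a (-0.44), Egln1 (-0.43), Slc16a1 (-0.40), Aldoc (-0.35), Pdk1 (-0.33), Hk1 (-0.12), Aldoa (-0.12) and Pdk3 (-0.07), given as the mean log2 difference over the 4 groups. Hif1a and both Egln genes are thus among them, with Bnip3 and Vegfa of the 7 other hypoxia targets. The rest of those 7 are not, and P4ha1 was higher on the second array in all 4 groups. Pdk3 read 991 on both J1 arrays with LIF. The genes higher on the second array were Pgk1 (0.50), Pfkm (0.34), P4ha1 (0.28), Slc2a3 (0.19) and Ldha (0.16).

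Hk2 differed by 0.01 between first and second arrays. The pattern also depended on the probe set. The chosen probe set of Ak4 differed by -0.02, whereas 1421830_at was lower on the second array in all 4 groups (-0.28) and 1421829_at was higher in 3 of 4 (0.27). The 3 probe sets of Tpi1 were all lower on second arrays (-0.74, -0.36 and -0.77), whereas those of Pgk1 gave 0.50, 0.03 and -0.67. Those of Hif1a went both ways, with -0.44 for the chosen probe set and 0.14, -0.23 and 0.23 for the others, the last a weak signal. The weaker probe sets of Egln1 (-2.40) and Egln3 (-1.15) were lower on the second array in all 4 groups, like the chosen ones. The fibroblast or feeder list was lower on the second array of all 4 groups as well, by 0.22 to 1.57. The embryonic stem cell list was higher in all 4, by 0.09 to 0.30, and so was the extraembryonic endoderm list, by 0.31 to 0.69. The trophoblast list was higher in 1 group, with values from -0.99 to 0.40. The part of any of these lists in the differences between first and second arrays was not tested.

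**Figure D5:**
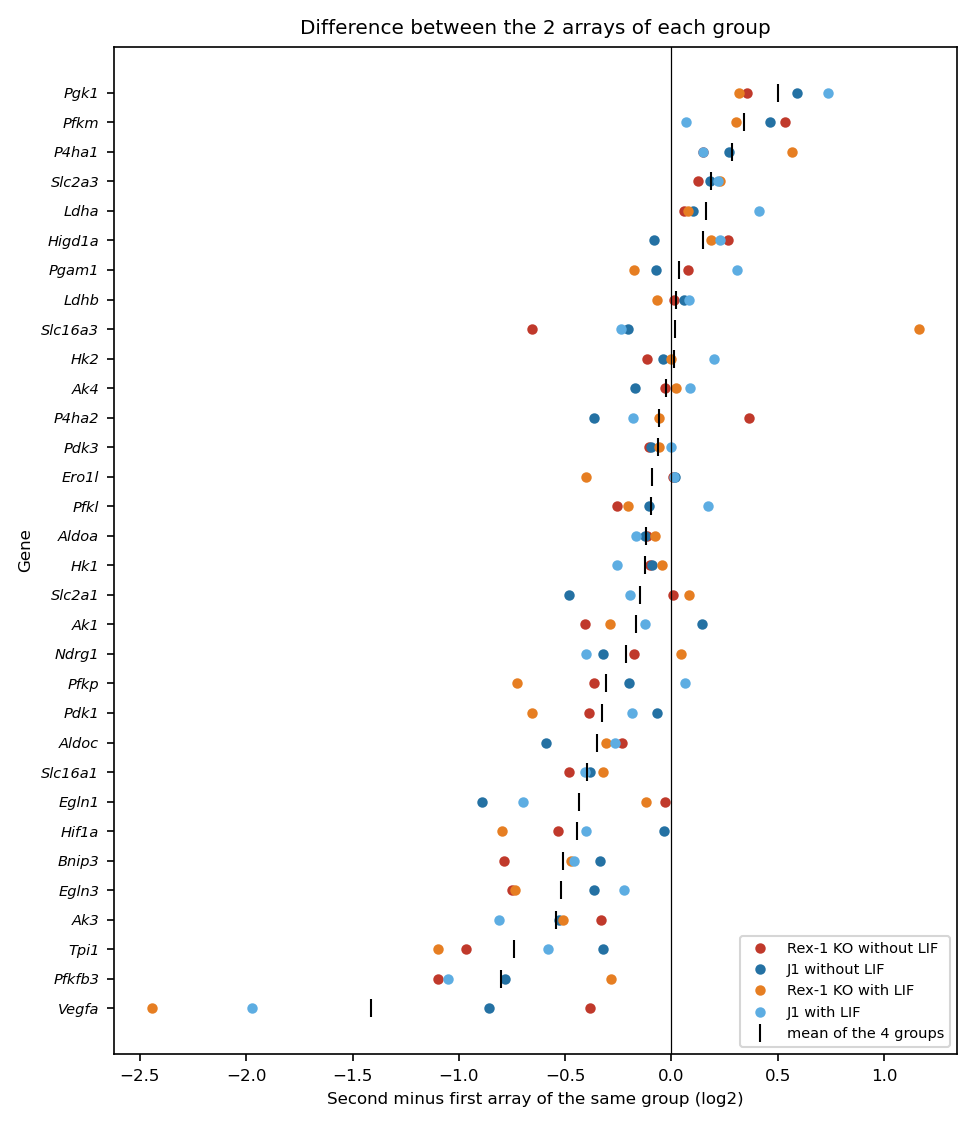
Log2 signal of the second minus the first array of the same group (horizontal axis) for the 32 genes (rows, ordered by the mean), with 1 point for each group and a bar for the mean of the 4 groups. Points of 14 genes lie below 0 in all 4 groups, with Vegfa lowest at a mean of -1.41, and those of 5 genes lie above 0, with Pgk1 highest at 0.50.

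Other genes of the same pathways were also read by list. limma called 0 of the 28 measured of 33 other glycolysis genes, 0 of 7 pentose phosphate genes, 0 of 12 other adenylate and nucleotide kinases, 0 of 10 genes of the HIF machinery and 0 of 26 other hypoxia targets, in both averaged contrasts. At an unadjusted p under 0.05, 1 glycolysis gene was higher and 2 hypoxia targets were lower in knockout-labelled cells. These are 3 of the 82 genes in the lists (3.66%), against 4.63% of all genes, and their values follow as a description. The median line differences of the lists lay between -0.07 and 0.01. Without LIF 11 of the 12 other adenylate and nucleotide kinases were lower on average and 1 higher, with a median of -0.13, where 49.0% of all genes were higher. Of the adenylate kinases among the 32 genes, Ak1 (0.09) and Ak3 (0.11) were higher and Ak4 (-0.29) was lower.

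The glycolysis gene was Pgk2, the testis form of the kinase, which read 72.9 and 98.4 in knockout-labelled and 10.2 and 20.1 in J1 cells without LIF, and 51.3 and 15.7 in knockout-labelled and 10.0 and 9.21 in J1 cells with LIF, an averaged difference of 2.06 (SE 0.45, adjusted p = 0.734 by limma). Pgk2 lay near the floor, with a mean log2 of 4.58. The hypoxia targets were Ndufa4l2, a mitochondrial protein, and Gys1, the muscle glycogen synthase. Ndufa4l2 read 31.0 to 75.05 on the knockout-labelled arrays and 109 to 155 on the J1 arrays, a difference of -1.48 (SE 0.32). Gys1 read 193 to 529 on the knockout-labelled arrays and 544 to 738 on the J1 arrays, a difference of -0.78 (SE 0.28). For each, all 4 knockout-labelled arrays lay below all 4 J1 arrays, as did those of 1.94% of all genes. Both were picked by p, which favours such an order. Their list of 26 genes had 12 higher and 14 lower, with a median of -0.01.

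For LIF withdrawal 3 of the 82 genes had an unadjusted p under 0.05 (3.66%), against 3.22% of all genes, and all 3 were lower without LIF. Ak5, a further cytosolic adenylate kinase, read 57.0 to 119 on the 4 arrays without LIF and 126 to 258 on the 4 with it, a difference of -1.02 (SE 0.30). Hkdc1, a hexokinase relative, differed by -1.91 (SE 0.48) and Pgam2, the muscle mutase, by -1.02 (SE 0.31). Both were weak, with a mean log2 of 5.22 and 6.21. Pgam2 read 192 on the first J1 array with LIF, against 80.5 to 101 on the other arrays with LIF. None of the 3 was called by limma (adjusted p = 1.00 for each).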

How the data were processed

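Transcript signal was measured on 8 single-colour Affymetrix arrays, grouped by the labels' titles and treatment text. Signal intensity on a linear scale is what the authors deposited for each probe set, and GCRMA is the tool given in the submitters' processing notes, without a version. Every deposited column has a mean of 500 once 2% of probe sets are trimmed at either end, and it is not in log2, so the step that made the intensities is not known. Detection values were not used here, so weak signals carry an unknown share of background, and levels of different probe sets were not compared. The number of arrays limits the precision.

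Of 45101 probe sets 64 are controls and were left out. Genes were named from the platform annotation where a probe set has 1 symbol (34945 probe sets), and 0 symbols changed through a RefSeq table of GRCm38.p6. The log2 of each intensity was used with no pseudocount. The model of limma 3.58.1 (R 4.3.3) held 4 group means and all 8 arrays, with an untrended eBayes prior, on the 43439 probe sets with a log2 of at least 4 on at least 2 arrays. Benjamini-Hochberg adjustment ran over all of them within each of 7 contrasts, with calls at an adjusted p under 0.05. Standard errors (SE) come from this fit, which was tested on simulated data. Values on every array are given for Ak4, for any called gene and for the 3 genes of smallest unadjusted p in each contrast. The genes and lists were chosen with earlier results of these data known.

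Whether the letter r pairs arrays was checked: between groups, the correlation of second-minus-first differences over the kept probe sets was 0.0496 to 0.198, and 2 of the 6 pairs of groups lay under 0.1, so the fit has no block. All 6 pairs lay above 0.1 where the check was restricted to the 32 genes (0.430 to 0.797) or to strong signals (mean log2 from 10 upward, 6516 probe sets, 0.318 to 0.771), and the fit with the block is an alternative. At most 0.00222% of the values of 2 replicate arrays were identical. Alternatives covered the filter, normalization, variance prior, groups in the fit, probe set per gene, the replicate block and each array left out. Promoter windows came from RefSeq and were searched in Python 3.11.15 with pandas 2.3.3, and figures were drawn with matplotlib 3.10.9.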

Additional observations from a re-analysis of the deposited data

How the results depend on the processing

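Across 109 alternatives of the count of called genes, 108 left 0 of the 32 genes called and 1 changed it. That was the replicate block (the letter r) with a mean log2 of at least 10, which called 1 of the genes for the averaged line difference, Ak4, where 38 of 6516 probe sets were called. The block alone called 0. The adjusted p of Ak4 was 0.0135 for 1450387_s_at and 0.0192 for 1421830_at in that setting, against 0.578 for both with the block alone. The same setting gave a median difference without LIF, knockout-labelled minus J1, of -0.0852, but over the 18 of the 32 genes it keeps, against -0.0117 over all 32 with or without the block.

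Of 482 alternatives for single genes and Ak4 probe sets, 3 turned the direction and 2 gained a call, both of them those of Ak4 above. Averaging all probe sets of a gene gave Ak4 a line difference of -0.0774 without LIF and Ndrg1 an interaction of 0.29, and without the second knockout-labelled array lacking LIF the averaged difference of Ak4 probe set 1421831_at was -0.0643 (up to 0.562 over the arrays left out). Leaving out each array left 0 genes called in all 7 contrasts. It moved the median line difference from -0.0969 to 0.0486 with LIF, -0.101 to 0.103 without LIF and -0.0839 to 0.0229 on average. The median LIF difference ran from -0.0441 to 0.183 in knockout-labelled cells, -0.0472 to 0.130 in J1 cells and -0.0162 to 0.123 on average, and the median interaction from -0.0339 to 0.113. The median of the genes differed between replicate arrays by an SD of 0.0727, and each of these 7 medians changed sign with 1 array left out. Fitting only the groups of a contrast applies to the 4 contrasts of 2 groups. Signals near a log2 of 4, such as those of 2 Ak4 probe sets, limit what can be read from the direction of weak probe sets.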
